A study of Bos taurus with 16 samples.

Results

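EMID1, CELSR2 and NUDT11 are genes outside the steroidogenic pathway whose transcripts fell steeply when cultured bovine theca cells were given bone morphogenetic protein 6 (BMP6), and they were chosen on that fall in the group means of log2 signal, which is therefore described here and not tested. They stand for 3 of 9155 named genes and for 6 of the 24016 probe sets measured, every probe set that the platform annotation gives to one of them, with 2 probe sets for each gene, of which the one with the higher mean over all arrays is called the brighter. Affymetrix bovine genome arrays were used, which report a log2 signal for each probe set, a group of short oligonucleotides that together detect 1 transcript. The RNA came from theca interna cells, the androgen-producing layer of the follicle wall, isolated from slaughterhouse ovaries of adult cattle, pooled over many follicles and kept for 6 days in serum-free primary culture. From day 3, for 4 days, the cultures received luteinising hormone with BMP6 (LH+BMP6; 160 pg/ml LH and 10 ng/ml BMP6), BMP6 alone at 10 ng/ml (BMP6), LH alone at 160 pg/ml (LH) or neither (control). Each of the 4 groups held 4 arrays, numbered 1 to 4, so 16 arrays in all. The experiment was run 4 times on separate batches of ovaries, and no label ties an array to its run.

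LH drives theca cells to make androgens through cyclic AMP, and BMP6, a ligand of the transforming growth factor beta family made within the follicle, signals through SMAD proteins. EMID1 encodes a secreted matrix protein that carries an EMI domain, the cysteine-rich module it shares with the emilins, and collagen-like repeats. CELSR2 encodes a very large cadherin of the adhesion G protein-coupled receptor class, the vertebrate relative of Drosophila flamingo, known for its part in planar cell polarity, the alignment of cells within the plane of a sheet. NUDT11 encodes a Nudix hydrolase that removes a phosphate from inositol pyrophosphates, signalling molecules derived from inositol phosphates, and that also cleaves diadenosine polyphosphates. In humans its neighbour on the X chromosome, NUDT10, encodes a nearly identical protein, and the RefSeq gene table for cattle (assembly ARS-UCD2.0) lists NUDT11 as a synonym of NUDT10 and places 1 gene between them. Array signals of these neighbours are therefore uncertain as to which gene they come from.

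The cells carried theca markers. The 7 theca markers, among them INSL3, CYP17A1 and LHCGR, had a summed signal (log2 of the sum of their linear signals) of 10.86 to 11.61 in LH+BMP6 and 10.76 to 11.29 in BMP6, against 14.57 to 15.14 in LH and 14.38 to 14.76 in control. By limma, 7 of 7 were called lower in LH+BMP6 against LH and 6 of 7 in BMP6 against control, at an adjusted p under 0.05, where 15.5% of all genes were called lower in each comparison. In bulk RNA, fewer cells of a type and less RNA per cell cannot be told apart. Of the 6 granulosa and 7 endothelial markers, 0 were called in either comparison by limma. Summed granulosa signal was 8.19 to 8.61 in LH+BMP6 and 8.20 to 8.49 in BMP6, against 8.19 to 8.89 in LH and 8.05 to 8.86 in control. The granulosa receptor gene FSHR stood at 3.26 to 3.72 on all 16 arrays, below the lower quartile of each array (4.31 to 4.43), while GATM of the same list stood at 7.04 to 8.14 and HSD17B1 at 5.24 to 7.19. Summed endothelial signal was 8.58 to 9.10 in LH+BMP6 and 8.56 to 9.19 in BMP6, against 9.14 to 9.74 in LH and 8.77 to 9.65 in control. Of 9 leukocyte markers, 5 were called higher in LH+BMP6 against LH and 2 in BMP6 against control, against 11.7% and 9.31% of all genes, and their summed signal was 10.70 to 11.16 in LH+BMP6 and 10.36 to 11.23 in BMP6, against 9.57 to 10.44 in LH and 10.17 to 10.23 in control. Their part in the results below was not tested. The hybridisation controls (mean of 9 probe sets) were dim on 3 arrays, LH replicate 1 and control replicates 1 and 3, at 8.66 to 8.71, where the other 13 arrays had 9.84 to 10.17. Values without these 3 arrays are given beside some of the results.

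EMID1 had the steadiest separation of the 3 genes. Its brighter probe set read 6.64, 6.45, 6.31 and 6.61 in the LH+BMP6 arrays, against 9.32, 8.62, 9.19 and 9.12 in the LH arrays. It read 6.41, 6.26, 6.29 and 6.59 in the BMP6 arrays, against 9.78, 9.56, 8.81 and 9.18 in the control arrays. All 8 arrays with BMP6 lay below all 8 without it. The group means were 6.50 ± 0.15 in LH+BMP6, 6.39 ± 0.15 in BMP6, 9.06 ± 0.31 in LH and 9.33 ± 0.43 in control (SD, n = 4 arrays each). As a description of what chose the gene, the difference was -2.56 ± 0.18 in LH+BMP6 against LH and -2.94 ± 0.18 in BMP6 against control (log2 ± SE of the limma fit), or 5.90-fold and 7.67-fold lower. With BMP6 the signal still lay near the middle of its arrays, between their 51.8th and 56.6th percentile.

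The other EMID1 probe set did not show this. It ranged from 6.28 to 6.45 in LH+BMP6 and from 6.13 to 6.62 in BMP6, against 6.41 to 6.65 in LH and 6.21 to 6.59 in control, so the groups overlapped. Its differences were -0.11 ± 0.11 in LH+BMP6 against LH and -0.13 ± 0.11 in BMP6 against control. Where in the transcript each probe set lies was not analysed here, and the fall of EMID1 rests on 1 of its 2 probe sets.

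CELSR2 fell by a similar amount with and without LH. Its brighter probe set read 4.87, 4.54, 5.28 and 4.63 in the LH+BMP6 arrays, against 7.87, 7.20, 7.13 and 7.08 in the LH arrays. It read 4.98, 4.90, 5.00 and 4.43 in the BMP6 arrays, against 7.88, 7.67, 6.94 and 6.98 in the control arrays. Again all 8 arrays with BMP6 lay below all 8 without it. The means were 4.83 ± 0.33 in LH+BMP6, 4.83 ± 0.27 in BMP6, 7.32 ± 0.37 in LH and 7.37 ± 0.48 in control (SD, n = 4 each), and the differences -2.49 ± 0.23 in LH+BMP6 against LH (5.62-fold lower) and -2.54 ± 0.23 in BMP6 against control (5.83-fold lower). With BMP6 its signal lay between the 25.6th and the 38.2nd percentile of the arrays. No background level was estimated, so whether these low values stand above background is not known.

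Its second probe set differed in the same direction by far less. It is the dimmer one by its mean over all 16 arrays but not on the arrays with BMP6. It ranged from 5.57 to 5.95 in LH+BMP6 and from 5.37 to 6.02 in BMP6, against 5.94 to 6.34 in LH and 5.99 to 6.20 in control. The ranges overlapped slightly in both comparisons, and the differences were -0.38 ± 0.13 in each of them.

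NUDT11 varied most between arrays of 1 group. Its brighter probe set read 5.64, 4.89, 4.99 and 4.84 in the LH+BMP6 arrays, against 10.14, 9.29, 7.50 and 7.65 in the LH arrays. It read 5.72, 5.17, 5.48 and 5.50 in the BMP6 arrays, against 8.51, 8.08, 6.47 and 6.91 in the control arrays. Here too all 8 arrays with BMP6 lay below all 8 without it. Replicates 1 and 2 were higher than replicates 3 and 4 in both groups without BMP6, and with BMP6 the spread was smaller. With BMP6 the signal lay between the 31.2nd and the 44.5th percentile of the arrays. Whether it stands above background there is not known. The group means were 5.09 ± 0.37 in LH+BMP6, 5.47 ± 0.23 in BMP6, 8.65 ± 1.28 in LH and 7.49 ± 0.96 in control (SD, n = 4 each). Its differences were -3.56 ± 0.50 in LH+BMP6 against LH (11.8-fold lower) and -2.02 ± 0.50 in BMP6 against control (4.06-fold lower).

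The dimmer NUDT11 probe set and NUDT10 also had their lowest group means with BMP6. The second NUDT11 probe set ranged from 4.44 to 4.96 in LH+BMP6 and from 4.46 to 4.90 in BMP6, against 5.30 to 7.55 in LH and 5.03 to 5.94 in control, without overlap between a BMP6 group and its partner. It differed by -1.49 ± 0.37 in LH+BMP6 against LH and by -0.68 ± 0.37 in BMP6 against control. With BMP6 it lay between the 25.7th and the 32.9th percentile of the arrays, and whether it stands above background there is not known. The brighter NUDT10 probe set read 4.40, 4.22, 4.01 and 4.03 in LH+BMP6, against 7.79, 6.39, 5.10 and 5.09 in LH. It read 4.42, 4.36, 4.36 and 4.38 in BMP6, against 6.35, 5.63, 4.57 and 4.54 in control. The differences were -1.93 ± 0.47 in LH+BMP6 against LH and -0.89 ± 0.47 in BMP6 against control. With BMP6 these signals lay between the 19.2nd and the 26.2nd percentile of their arrays, so whether they stand above background is not known. Without the 3 arrays with dim controls the difference in LH+BMP6 against LH was -1.36. The dimmer NUDT10 probe set differed by -1.03 ± 0.38 in that comparison, and by -0.49 without LH replicate 1. The probe sets of NUDT10 share the cluster number in their names with the dimmer one of NUDT11, so NUDT10 and NUDT11 are not 2 independent measurements, and these differences too are given as a description with no test.

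**Figure D1:**
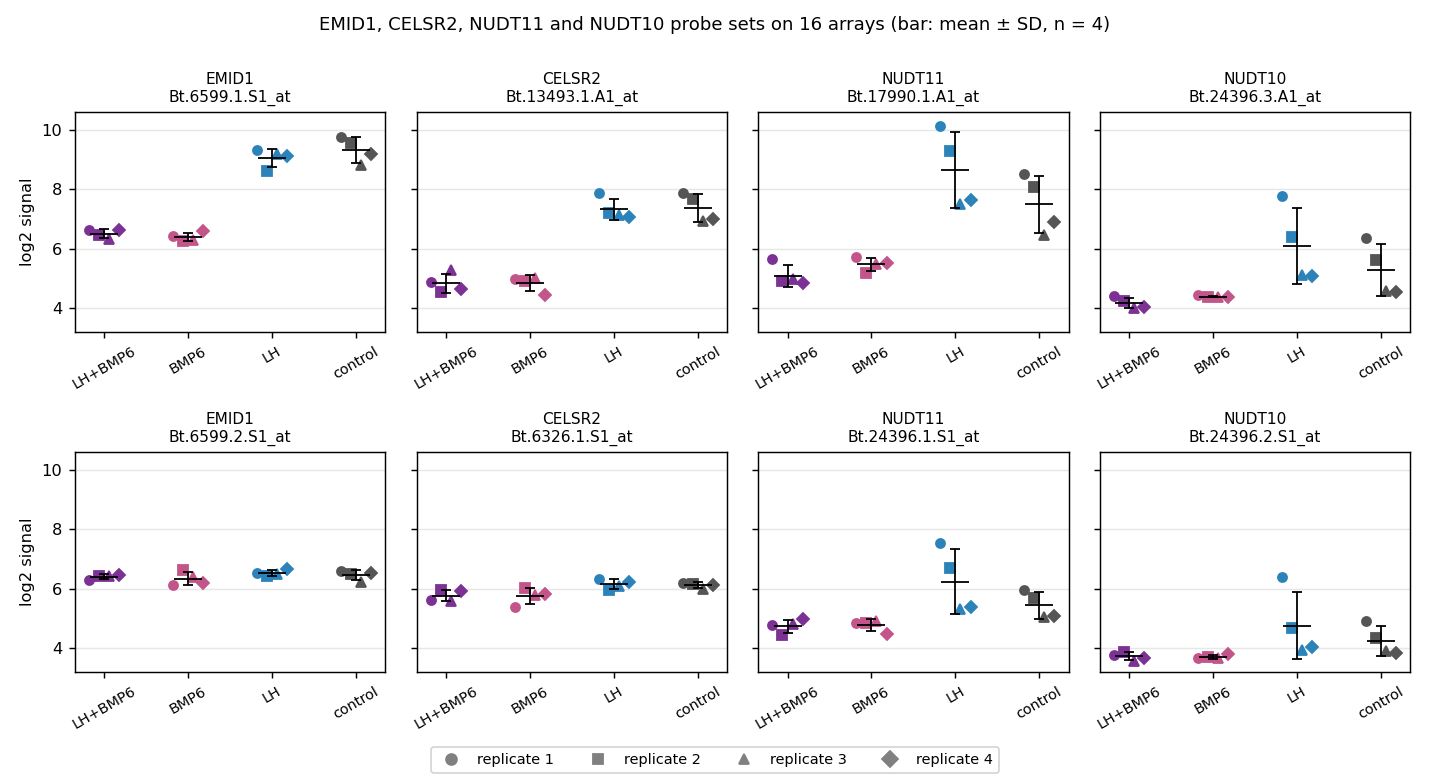
Log2 signal (vertical axis) of the probe sets of EMID1, CELSR2, NUDT11 and NUDT10 on the 16 arrays, by group; symbols mark replicate numbers and bars the mean ± SD of 4 arrays. The EMID1 probe set in the top row lies at 6.26 to 6.64 with BMP6 and at 8.62 to 9.78 without it, while the second EMID1 probe set stays between 6.13 and 6.65 in all groups.

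Across the 9155 genes the 3 ranked among the steepest falls. In BMP6 against control EMID1 had the 8th largest fall, next to GPX3, a secreted glutathione peroxidase (-3.04 ± 0.46), and CYP17A1, an enzyme of androgen synthesis (-2.80 ± 0.52). CELSR2 ranked 12th, between the collagen gene COL21A1 (-2.59 ± 0.08) and ATP4B, a subunit of the gastric proton pump (-2.50 ± 0.36). NUDT11 ranked 23rd, between CCDC69 (-2.05 ± 0.22) and DCTPP1, which hydrolyses dCTP (-1.996 ± 0.13). In LH+BMP6 against LH, which also chose the genes, NUDT11 ranked 7th, EMID1 17th and CELSR2 18th. For scale, INSL3 had the largest fall in both comparisons (-5.20 ± 0.55 with LH and -5.70 ± 0.55 without), and the BMP target ID1 rose by 2.82 ± 0.20 and 2.71 ± 0.20. Among all probe sets, 10.3% were called lower in LH+BMP6 against LH and 9.95% in BMP6 against control, and groups did not overlap in the lower direction for 11.2% and 12.7%. Nothing is read from these shares for the 3 genes, since these contrasts chose them.

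**Figure D2:**
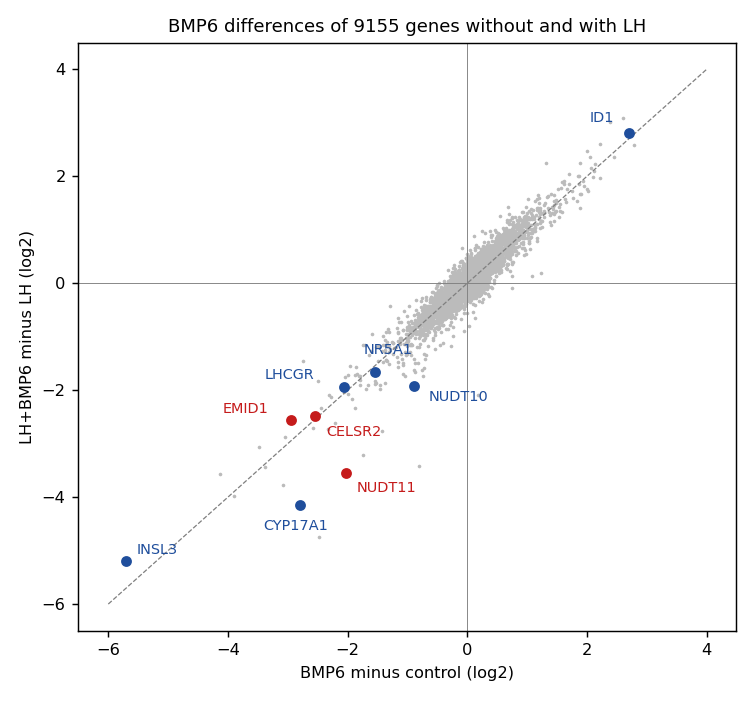
Difference in log2 signal of each gene in LH+BMP6 minus LH (vertical axis) against BMP6 minus control (horizontal axis), 1 point per gene, with the 3 genes in red, NUDT10 and 5 other genes in blue and the line of equal differences dashed. EMID1 (-2.56 and -2.94) and CELSR2 (-2.49 and -2.54) lie near the line, and NUDT11 (-3.56 and -2.02) lies below it with CYP17A1 (-4.15 and -2.80).

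LH was a separate comparison, but it was read from the same group means that chose the genes. The LH tests of these genes are therefore not independent of that choice. Over all probe sets limma called 0.0125% in LH against control, 3 probe sets, and 0 in LH+BMP6 against BMP6, where 471 had an unadjusted p under 0.05. Those 471 are fewer than 1 in 20, the share that chance alone would give, and the reason was not tested. EMID1 did not pass the test in either comparison (-0.27 ± 0.18, adjusted p = 0.926, in LH against control, with a 95% interval of -0.64 to 0.11, and 0.11 ± 0.18, adjusted p = 0.9998, in LH+BMP6 against BMP6, with an interval of -0.26 to 0.49). CELSR2 stood at nearly equal means in both comparisons (-0.05 ± 0.23, adjusted p = 0.988, interval -0.53 to 0.43, and 0.00 ± 0.23, adjusted p = 0.9998, interval -0.48 to 0.49).

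NUDT11 had higher values with LH in the absence of BMP6. LH minus control was 1.63, 1.21, 1.03 and 0.74 between arrays of the same number, which is a description, since the numbers are not known to pair the arrays. The ranges of the LH and control arrays overlapped, and the means of both groups had also entered the choice of the genes. The mean difference was 1.15 ± 0.50, which did not pass the adjustment (unadjusted p = 0.0325, limma adjusted p = 0.908, 95% interval 0.11 to 2.20). The second NUDT11 probe set differed by 0.79 ± 0.37 (adjusted p = 0.914) and NUDT10 by 0.82 ± 0.47 (adjusted p = 0.924), each higher in 4 of 4 replicate numbers. LH replicate 1 weighed on all of these, and without it the differences were 0.66 for the brighter NUDT11 probe set, 0.35 for the second and 0.26 for NUDT10. Control replicate 1, the highest control array for each of these probe sets, was kept there. Across all probe sets, 8.06% were higher in 4 of 4 replicate numbers, and 0.479% were also lower in 4 of 4 in LH+BMP6 against BMP6. Without the 3 arrays with dim controls the differences were 0.65, 0.40 and 0.44 in that order (limma adjusted p = 0.99997 for each).

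With BMP6 present the brighter NUDT11 probe set had a lower mean with LH, and the mean difference of the second was near 0. LH+BMP6 minus BMP6 of the brighter one was -0.09, -0.28, -0.50 and -0.67, a mean of -0.38 ± 0.50 (limma adjusted p = 0.9998, interval -1.43 to 0.66), and 6.34% of all probe sets were lower in 4 of 4 replicate numbers. For the second probe set it was -0.07, -0.42, -0.10 and 0.50, a mean of -0.02 ± 0.37 (adjusted p = 0.9998). The interaction, the LH difference with BMP6 minus that without it, was -1.54 ± 0.70 for the brighter NUDT11 probe set (unadjusted p = 0.0427, limma adjusted p = 0.9995, 95% interval -3.01 to -0.06), and of the 24016 probe sets limma called 0, with 773 at an unadjusted p under 0.05. These 773 are also fewer than the 1 in 20 that chance alone would give, and the reason was not tested. The interaction uses the arrays whose group means chose the genes. Whether the low NUDT11 signals with BMP6 stand above background is not known, and their part in these differences was not tested. It was 0.38 ± 0.25 for EMID1 and 0.05 ± 0.32 for CELSR2 (adjusted p = 0.9995 for both), and -0.81 ± 0.52 for the second NUDT11 probe set (adjusted p = 0.9995). Without LH replicate 1, but with control replicate 1 kept, the interaction was -1.04 for the brighter NUDT11 probe set and -0.37 for the second. Between same-numbered arrays, as a description, it was -1.72, -1.49, -1.53 and -1.41 for the brighter one. For the second it was -1.68, -1.43, -0.36 and 0.23.

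**Figure D3:**
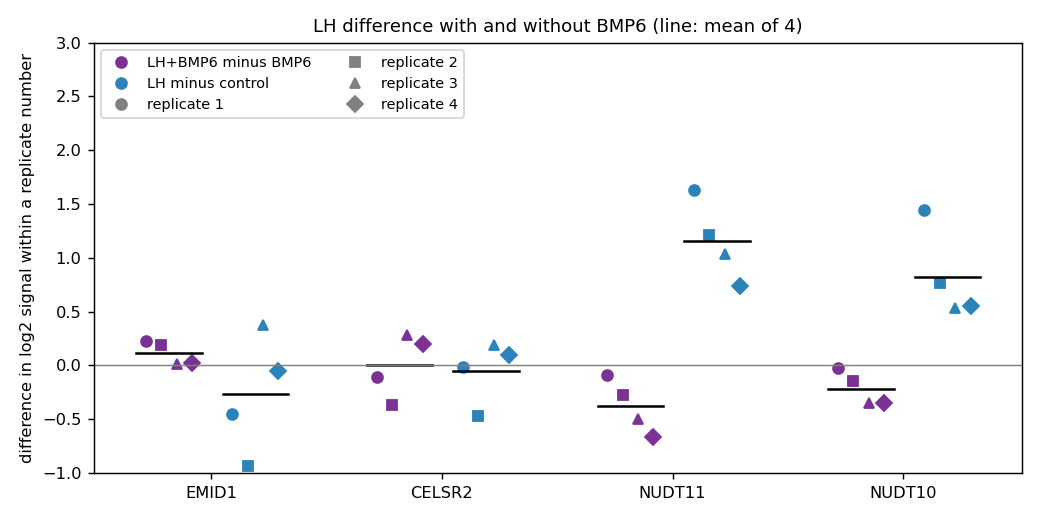
Difference in log2 signal (vertical axis) of LH+BMP6 minus BMP6 (purple) and LH minus control (blue) between arrays of the same replicate number, which are not known to be pairs, for the brighter probe set of each gene; lines are means of 4. For NUDT11 the blue points lie between 0.74 and 1.63 and the purple ones between -0.67 and -0.09, while for CELSR2 both sets straddle 0.

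Genes were then ranked by how closely their log2 signal followed each of the 3 over the 16 arrays (Pearson r). These correlations are dominated by the gap between arrays with and without BMP6 and are given as a measure of likeness with no test. Closest to EMID1 were PRXL2A (r = 0.993), a peroxiredoxin-like protein gene, INHA (0.992), the inhibin alpha subunit, ERP27 (0.992), an endoplasmic reticulum protein, DCTPP1 (0.991) and PIGS (0.991), part of the complex that attaches GPI anchors. Within the 8 arrays without BMP6 their r with EMID1 was 0.74 to 0.94, and within the 8 with BMP6 it was 0.17 to 0.73. PRXL2A differed by -1.70 ± 0.13 in LH+BMP6 against LH and by -1.84 ± 0.13 in BMP6 against control, and INHA by -3.58 ± 0.24 and -4.13 ± 0.24.

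Closest to CELSR2 were NDUFS3 (r = 0.990), a subunit of respiratory complex I, TSPAN33 (0.986), a tetraspanin, NDUFAF3 (0.980), a complex I assembly factor, PRXL2A (0.980) and PLAC9 (0.980). NDUFS3 differed far less than CELSR2, by -0.80 ± 0.08 in LH+BMP6 against LH and -0.78 ± 0.08 in BMP6 against control. TSPAN33 differed by -2.08 ± 0.10 and -2.31 ± 0.10. EMID1 and CELSR2 themselves correlated at 0.97 over the 16 arrays, at 0.74 within the 8 arrays without BMP6 and at -0.64 within the 8 with it.

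NUDT11 had a different set of nearest genes. They were MMUT (r = 0.979), the mitochondrial methylmalonyl-CoA mutase, HPRT1 (0.976), a purine salvage enzyme, UQCC3 (0.971), an assembly factor of respiratory complex III, MMAB (0.969), which makes the cobalamin cofactor of that mutase, and MCCC1 (0.968), a subunit of the carboxylase in leucine breakdown. Their r with NUDT11 stayed at 0.93 to 0.97 within the 8 arrays without BMP6, where LH replicate 1 was highest for all 6 of these genes, and was 0.21 to 0.91 within the 8 with BMP6. Their differences were smaller than that of NUDT11, from -0.40 to -1.32 in LH+BMP6 against LH and from -0.27 to -1.01 in BMP6 against control. Within the 8 arrays without BMP6, NUDT11 correlated at 0.16 with EMID1, at 0.72 with CELSR2 and at 0.97 with NUDT10. Arrays of 1 replicate number may share a batch of ovaries, so these 8 arrays are not 8 independent samples.

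**Figure D4:**
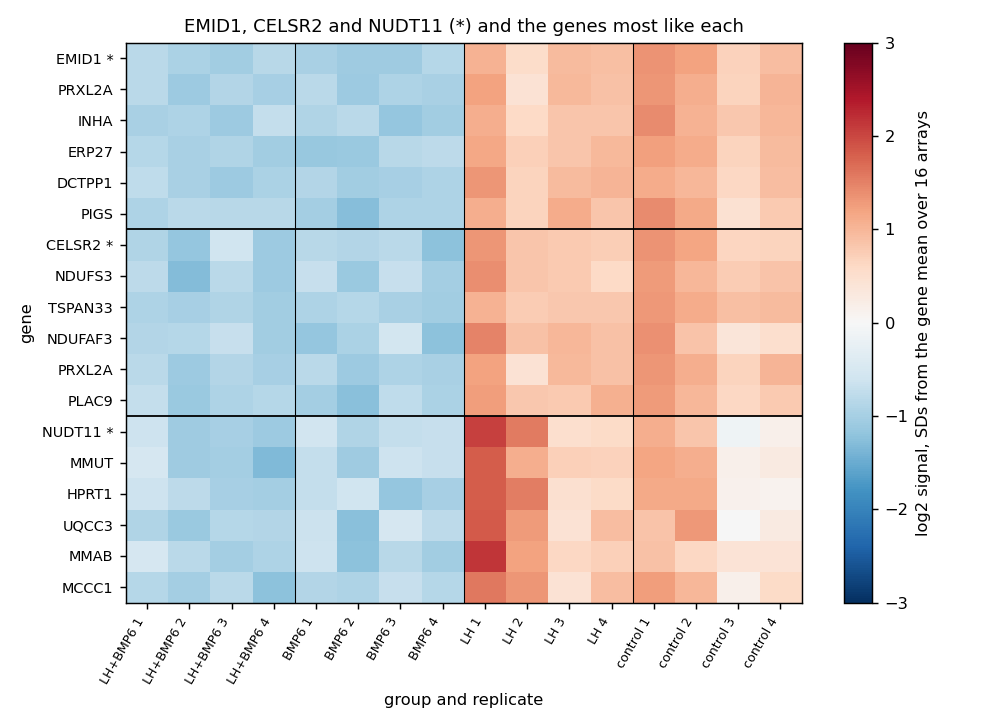
Log2 signal of EMID1, CELSR2 and NUDT11 (asterisks) and of the 5 genes most like each, as SDs from the mean of the gene over 16 arrays; columns are arrays by group and replicate. Every gene shown is below its mean on all 8 arrays with BMP6, and the 6 genes of the NUDT11 block are highest in LH replicate 1.

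Relatives of the 3 genes were examined as lists made by family or pathway, with the 3 genes left out and each gene read by its brightest probe set. Over all genes limma called 11.7% higher and 15.5% lower in LH+BMP6 against LH, and 9.31% higher and 15.5% lower in BMP6 against control. The median difference of all genes was -0.03 and -0.02. With LH as the only change limma called 0 members of these 5 lists, against 0.0218% of all genes in LH against control and 0 in LH+BMP6 against BMP6.

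None of the 7 measured EMI domain genes followed EMID1 down by the test in the main fit. In LH+BMP6 against LH, 3 were called without LH replicate 1, and the direction of the added call is not given here. In both BMP6 comparisons 2 of 7 rose and 0 fell, with medians of 0.37 in LH+BMP6 against LH and 0.21 in BMP6 against control. MMRN1 of this list read 2.71 to 3.12 on all 16 arrays, below the lower quartile of each array. TGFBI, a matrix protein induced by transforming growth factor beta, ranged from 6.25 to 7.08 in LH+BMP6, against 5.10 to 5.91 in LH, and rose 2.15-fold (1.11 ± 0.21, adjusted p = 0.00114). In BMP6 against control it rose 1.95-fold (0.96 ± 0.21, adjusted p = 0.00358). EMILIN2, an elastic fibre glycoprotein, rose by 0.94 ± 0.19 (adjusted p = 0.00193) and 0.79 ± 0.19 (adjusted p = 0.00734). EMILIN1 (0.37 ± 0.20 and 0.21 ± 0.20, adjusted p = 0.225 and 0.562) and COL26A1, which like EMID1 joins an EMI domain to collagen repeats (-0.33 ± 0.11 and -0.13 ± 0.11, adjusted p = 0.0511 and 0.508), were not called. Of 9 pericyte and fibroblast markers, 2 were called higher and 1 lower in LH+BMP6 against LH, where 11.7% and 15.5% of all genes were. In BMP6 against control 2 were called higher and 0 lower, where 9.31% and 15.5% of all genes were. Their summed signal was 14.91 to 15.22 in LH+BMP6 and 14.75 to 15.21 in BMP6, against 14.21 to 14.96 in LH and 14.23 to 14.80 in control. The part of these markers in the rises of TGFBI and EMILIN2 was not tested.

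Of the planar cell polarity genes 10 of 26 were measured, CELSR1 and CELSR3 not among them, and 1 rose and 0 fell in each BMP6 comparison. The riser was ROR2, a receptor for non-canonical Wnt ligands. It ranged from 7.82 to 8.46 in LH+BMP6, against 5.94 to 6.36 in LH, and rose 3.95-fold (1.98 ± 0.19, adjusted p = 2.55e-06), and it rose 4.31-fold in BMP6 against control (2.11 ± 0.19, adjusted p = 1.36e-06). The other 9, including the receptor gene FZD3, the scaffolds DVL1 and DVL2, PRICKLE1, PRICKLE3 and ANKRD6, differed by between -0.43 and 0.31 and were not called. The list medians were -0.08 and -0.06.

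Adhesion G protein-coupled receptors, the receptor class of CELSR2, had 8 genes measured, of which 2 rose and 0 fell in each BMP6 comparison. ADGRD1 ranged from 7.81 to 8.54 in LH+BMP6, against 6.48 to 7.22 in LH, and rose 2.28-fold (1.19 ± 0.19, adjusted p = 0.000325), with 0.66 ± 0.19 (adjusted p = 0.0226) in BMP6 against control. ADGRE5, also known as CD97 and abundant on leukocytes, rose by 0.47 ± 0.09 (adjusted p = 0.000834) and 0.28 ± 0.09 (adjusted p = 0.0307). Of the 9 leukocyte markers given above, 5 and 2 were called higher in the same comparisons, where 11.7% and 9.31% of all genes were. In BMP6 against control 0 of the 8 were called without BMP6 replicate 1 or without control replicate 3, and 1 without the 3 arrays with dim controls. Without BMP6 replicate 2 or 4, or without control replicate 2 or 4, 1 was called.

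Genes of inositol polyphosphate and pyrophosphate metabolism, the substrates of NUDT11, moved in both directions. Of 15 measured, 2 rose and 2 fell in LH+BMP6 against LH, and 5 rose and 1 fell in BMP6 against control, with medians of 0.14 and 0.13. INPP1, an inositol polyphosphate phosphatase, ranged from 6.56 to 6.89 in LH+BMP6, against 5.64 to 5.89 in LH, and rose by 0.89 ± 0.10 (adjusted p = 1.39e-05) and, in BMP6 against control, by 0.64 ± 0.10 (adjusted p = 0.00032). IPMK, the inositol polyphosphate multikinase, rose by 0.71 ± 0.15 (adjusted p = 0.00281) and 0.68 ± 0.15 (adjusted p = 0.00416). ITPKA, a kinase of inositol trisphosphate, fell with LH present (-0.79 ± 0.16, adjusted p = 0.00151) and without it (-0.83 ± 0.16, adjusted p = 0.00116). The other member counted as lower, in LH+BMP6 against LH, was NUDT10, which is not independent of NUDT11 and so of the choice of the genes.

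The hydrolases that share the pyrophosphate substrates of NUDT11, NUDT3 and NUDT4, were not called. NUDT3 ranged from 7.23 to 7.39 in LH+BMP6, against 7.12 to 7.40 in LH (-0.02 ± 0.08, adjusted p = 0.893), and differed by -0.01 ± 0.08 in BMP6 against control (adjusted p = 0.958). NUDT4 differed by -0.24 ± 0.15 (adjusted p = 0.314) and 0.13 ± 0.15 (adjusted p = 0.648).

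Among the other Nudix hydrolases 10 of 19 were measured, and 0 rose and 3 fell in LH+BMP6 against LH and 0 rose and 4 fell in BMP6 against control. The medians were -0.23 and -0.25. NUDT2, which splits diadenosine tetraphosphate, ranged from 6.12 to 6.61 in LH+BMP6, against 6.81 to 7.14 in LH, and fell (-0.66 ± 0.15, adjusted p = 0.0052), as it did in BMP6 against control (-0.72 ± 0.15, adjusted p = 0.00304). NUDT17 (-0.42 ± 0.13, adjusted p = 0.0316, and -0.69 ± 0.13, adjusted p = 0.0014) and NUDT14, a UDP-glucose pyrophosphatase (-0.43 ± 0.10, adjusted p = 0.00374, and -0.41 ± 0.10, adjusted p = 0.00588), fell in both. NUDT8 fell in BMP6 against control (-0.28 ± 0.09, adjusted p = 0.0386) and was not called in LH+BMP6 against LH (-0.12 ± 0.09, adjusted p = 0.399). Of all genes, 15.5% were called lower in each of these comparisons.

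**Figure D5:**
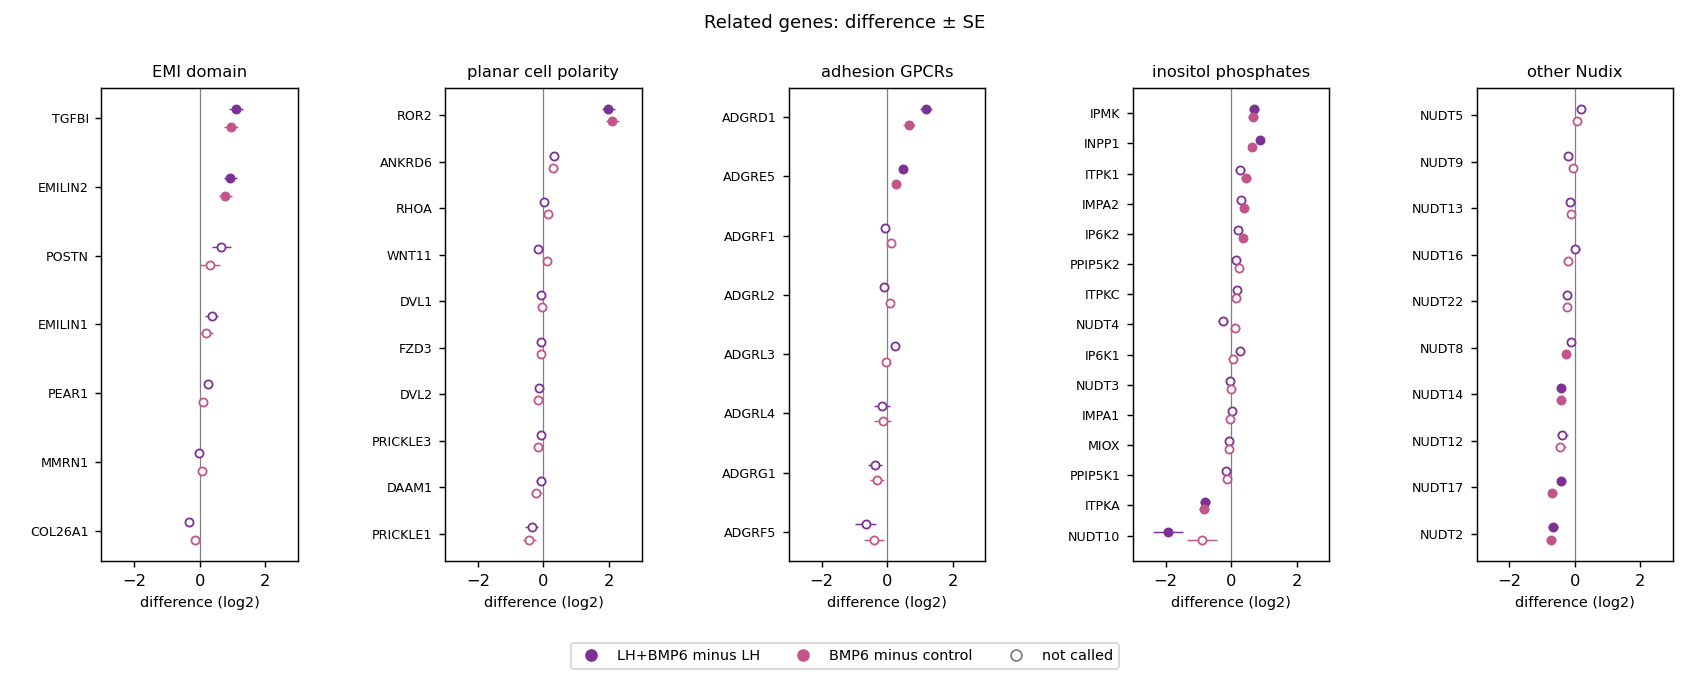
Difference in log2 signal ± SE (horizontal axis) of each measured relative in LH+BMP6 minus LH (purple) and BMP6 minus control (pink), by list; filled points passed the test. ROR2 (1.98 and 2.11) has the highest and NUDT10 (-1.93 and -0.89) the lowest value in both comparisons, and the 4 Nudix genes with filled points in BMP6 minus control are all below 0. The NUDT10 point, filled in LH+BMP6 minus LH, is not independent of the choice of the genes.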

How the data were processed

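The deposited value table holds log2 signals of 24128 probe sets on 16 arrays, made by the authors with RMA in Affymetrix Expression Console, per the submitters' processing notes (version not given in the sources used here). It was used as deposited, and 0 value columns were left unused. Of the probe sets, 112 Affymetrix controls were left out and 24016 tested. GEO's platform annotation gave 1 symbol to 13292 of them, several to 86 and none to 10638, and updating through Entrez identifiers (found for 13263) changed 0 symbols. A gene is read by its probe set with the highest mean.

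Tests used limma 3.58.1 in R 4.3.3: lmFit with a coefficient per group over 16 arrays, eBayes with an intensity trend, Benjamini-Hochberg adjustment over 24016 probe sets and a call at an adjusted p under 0.05. Errors of differences are limma's moderated standard errors. The SE of a difference had a median of 0.102 over probe sets, and the number of arrays limits the precision. The fit was tested on simulated data. Figures were drawn with matplotlib 3.10.9 from tables made with pandas 2.3.3 and numpy 2.4.6 in Python 3.11.15.

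The 3 genes and all lists were chosen with earlier results of these data known. No p is given for the 3 genes or NUDT10 in the 2 comparisons of BMP6 with its absence. NUDT10 is still counted among the called members of its list, where its dependence on the choice of the genes is stated. Lists are described by counts and medians, with no set test. Named genes are the 3, up to 4 called members of each list with the largest difference, a few fixed relatives, the 5 genes most like each by Pearson r, neighbours in rank, and INSL3, CYP17A1, LHCGR, NR5A1 and ID1 for scale. The other list members and markers named were chosen after their values were seen. Where nothing ties arrays to separate cultures, p-values measure the spread between arrays. Alternatives were quantile normalization, median centring, the replicate number as a fixed or random block (statmod 1.5.0), eBayes without trend or robust, probe sets under the 40th percentile of mean signal left out, only the arrays compared, the mean of all probe sets of a gene, each array left out in turn, and 3 arrays of low hybridisation-control signal left out. Promoter motifs, which had been planned, and sequences are not analysed here.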

Additional observations from a re-analysis of the deposited data

Results flagged for a closer look

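The brighter probe sets of NUDT11 and NUDT10 stood out because the difference between same-numbered arrays with and without LH had opposite signs with and without BMP6 in 4 of 4 replicate numbers, although the numbers are not known to pair the arrays. The second probe sets did not show this: in LH+BMP6 against BMP6 that of NUDT11 was lower in 3 of 4 numbers (mean -0.02) and that of NUDT10 in 2 of 4 (mean 0.02). The interaction was -1.54 for NUDT11 and -1.04 for NUDT10, and it did not pass limma's adjustment for either (adjusted p = 0.9995 for both). Without LH replicate 1, but with control replicate 1 kept, it was -1.04 for NUDT11 and -0.47 for NUDT10. Without the 3 arrays with dim controls it was -1.04 and -0.66. Of all probe sets, 0.479% (115 of 24016) showed this pattern of signs, higher with LH in 4 of 4 replicate numbers without BMP6 and lower in 4 of 4 with it.

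Single arrays stood apart from the other 3 of their group in 3 of 52 groups of 4 arrays checked, and chance flags about 1 in 20. The brighter CELSR2 probe set was lowest in BMP6 replicate 4, at 4.43, and highest in LH replicate 1, at 7.87. The dimmer EMID1 probe set was lowest in LH+BMP6 replicate 1, at 6.28.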

How the results depend on the processing

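The falls of the brighter EMID1, CELSR2 and NUDT11 probe sets kept their direction under every alternative run. Without single arrays they were -2.71 to -2.47, -2.64 to -2.31 and -3.94 to -3.06 in LH+BMP6 against LH, and -3.11 to -2.79, -2.69 to -2.37 and -2.36 to -1.68 in BMP6 against control, in that order of genes. Of the list counts, adhesion receptors called in BMP6 against control (2) came to 1 with only the arrays compared, 1 without the 3 arrays with dim hybridisation controls and 0 to 2 without single arrays. Planar polarity genes there were 1 to 2 without single arrays. EMI domain genes called in LH+BMP6 against LH (main 2) came to 5 with the replicate block. They came to 3 without LH replicate 1 and 3 without the 3 arrays with dim hybridisation controls. Other Nudix hydrolases there came to 5 with the mean of all probe sets (main 3). Over all probe sets 2660 were called in BMP6 against control without those 3 arrays, against 4340. In LH against control the 3 calls came to 1 with only the arrays compared, 0 without those 3 arrays, and 1 to 6 without single arrays. The causes were not tested.

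Differences near 0 changed sign. The brighter CELSR2 probe set ranged without single arrays from -0.23 to 0.12 in LH against control, from -0.15 to 0.10 in LH+BMP6 against BMP6 and from -0.12 to 0.24 in the interaction. The dimmer one ranged from -0.038 to 0.096, from -0.10 to 0.11 and from -0.13 to 0.086, and without the 3 arrays was -0.065 in LH against control and 0.085 in the interaction. The dimmer EMID1 probe set ranged from -0.022 to 0.10 in LH against control and from -0.053 to 0.11 in the interaction, which was -0.0043 after quantile normalization. The dimmer NUDT11 probe set ranged from -0.12 to 0.081 in LH+BMP6 against BMP6. The dimmer NUDT10 probe set ranged from -0.045 to 0.78 in LH against control, from -0.037 to 0.068 in LH+BMP6 against BMP6 and from -0.76 to 0.062 in the interaction.

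Same-numbered arrays deviated together only in part. The mean correlations of their deviations were 0.04 in BMP6 against control, 0.20 in LH+BMP6 against LH, 0.16 in LH against control and 0.38 in LH+BMP6 against BMP6. Between arrays of other numbers they were -0.01, -0.07, -0.05 and -0.12 in that order. Deviations were taken from the group mean, which by itself gives these the opposite sign, so they are not a separate observation. In no comparison did every same-numbered pair exceed 0.1, so the numbers were not taken as pairs. Differences between same-numbered arrays are therefore a description. The replicate block gave 5202, 5706, 2 and 0 calls in those comparisons, against 4340, 4879, 3 and 0 without it. For NUDT11 it gave a limma adjusted p = 0.434 in LH against control and 0.994 for the interaction. Planned promoter motifs were not run.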
